A study of Rattus norvegicus with 6 samples.

Results

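Genes of the major histocompatibility complex (MHC) and of antigen presentation were followed in islets of fetal rats. They were 10 of the 17321 genes counted, taken by their symbols. The 5 class I genes were RT1-S3, B2m, Tap1, Tap2 and Psmb8, and the 5 class II genes were RT1-Da, RT1-Db1, RT1-Ba, RT1-Bb and Cd74. They were selected on function with earlier results of these data known, and so on their differences between high glucose and control, whose values are therefore given as a description that supports nothing.

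The libraries came from Sprague Dawley rats, an outbred strain, at gestational day 22. In the high glucose group the left uterine horn was infused with glucose for 48 h, at 4 mg/min and starting on gestational day 20, and the control group was the right horn of the same dam. Each library held islets of 2 pooled fetal pancreata, kept for 24 h after isolation in RPMI medium with 5 mM glucose. There were 3 libraries per group in 3 dam pairs, so horn side and glucose cannot be told apart. With dam as a block, p-values rest on how the within-pair differences of these pools varied between the 3 dams. Total counts were 22643755 to 30229658 per high glucose library and 18077841 to 30993532 per control library.

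Sample titles and alignment names give opposite horns for 6 of 6 libraries. Each direction given here is that of the treatment labels and would turn round under the other naming. The label of islets was checked against markers: the summed level of 6 beta cell genes was 4905 to 18410 counts per 1e6 (CPM) in high glucose and 11070 to 22670 CPM in control. Genes of mesenchyme, the connective tissue of the pancreas, summed to 20910 to 29830 CPM in high glucose and 15200 to 35060 CPM in control, so the libraries held much non-endocrine RNA.

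MHC class I molecules sit on nearly all nucleated cells and show peptides from inside the cell to CD8 T cells. Their heavy chain pairs with beta-2 microglobulin, and the peptides are cut by the proteasome and carried into the endoplasmic reticulum by the transporter TAP. MHC class II molecules show peptides from endocytosed protein to CD4 T cells and are made mainly by dendritic cells, B cells and macrophages. In the rat the complex is called RT1. Interferons raise class I genes in most cells, and class II genes are switched on through the coactivator CIITA, which acts at paired X and Y boxes in their promoters.

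The class I genes share a promoter element that the class II genes lack in the windows searched, and the stretches around it are shown because it is the feature that splits the members by class. Windows of 250 bases before to 50 after each annotated start were taken from RefSeq (GRCr8), which had one for 10 of 10 members. The core of the interferon response element, GAAANNGAAA on either strand, was in 5 of 5 class I windows, in 0 of 5 class II windows and in 3.92% of all 33469 windows. Each stretch reads 5′ to 3′ along its gene with the element in capitals, and TTTC repeats are the element on the other strand. RT1-S3 is at chr20:2675401-2675440 (plus strand), B2m at chr3:129549165-129549204 (plus), Tap1 at chr20:4668640-4668679 (minus), Tap2 at chr20:4652313-4652352 (minus) and Psmb8 at chr20:4657011-4657050 (minus).
RT1-S3: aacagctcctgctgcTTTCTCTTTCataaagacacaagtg
B2m: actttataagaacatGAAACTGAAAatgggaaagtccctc
Tap1: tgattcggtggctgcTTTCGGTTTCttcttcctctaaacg
Tap2: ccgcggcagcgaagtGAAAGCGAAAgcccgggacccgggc
Psmb8: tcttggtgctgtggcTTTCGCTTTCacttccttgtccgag

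The class II chain genes share a Y box, and all but RT1-Ba also hold the X box core searched for. Their stretches are shown because the boxes are spaced nearly alike in the 3 genes that hold both. The X box core AGNNACNGATG was in 0.95% of all windows and in those of RT1-Da, RT1-Db1 and RT1-Bb. The extended Y box CTGATTGG, whose letters were chosen after the sequences had been seen and which contains the Y box core ATTGG, was in 3.5% of all windows and in those of RT1-Da, RT1-Db1, RT1-Ba and RT1-Bb. It was also in the window of RT1-S3 on the other strand. The window of Cd74 held neither the X box core nor the extended Y box. The core ATTGG alone was in 37.5% of windows. X box core and extended Y box occurred together in 8 of 33469 windows (0.0239%), and 4 of the 8 belong to RT1-Da, RT1-Db1, RT1-Db2 and RT1-Bb. The boxes are in capitals below, with 20 bases between them in RT1-Da and 19 in RT1-Db1 and RT1-Bb. RT1-Da is at chr20:4515317-4515385 (plus), RT1-Db1 at chr20:4560223-4560290 (minus), RT1-Ba at chr20:4576966-4577033 (plus) and RT1-Bb at chr20:4604160-4604227 (minus). Where no match is given, these letters are not in the window, and a match is not evidence of a working site.
RT1-Da: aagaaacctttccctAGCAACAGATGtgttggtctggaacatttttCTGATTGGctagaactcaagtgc
RT1-Db1: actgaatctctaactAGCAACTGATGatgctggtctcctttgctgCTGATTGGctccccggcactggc
RT1-Ba: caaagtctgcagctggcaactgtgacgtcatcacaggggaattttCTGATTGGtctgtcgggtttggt
RT1-Bb: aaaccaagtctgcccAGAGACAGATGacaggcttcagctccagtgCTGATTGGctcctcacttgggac

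Most of the members were lower in high glucose than in control islets of the same dam, with the class II chain genes showing the widest differences. The 4 chain genes RT1-Da, RT1-Db1, RT1-Ba and RT1-Bb were lower in all 3 pairs, and so were the class I genes RT1-S3, Tap1 and Psmb8. B2m and the invariant chain Cd74 were lower in 2 pairs and higher in 1. Of the 9 members tested, edgeR's quasi-likelihood test with dam as a block called 0 at an adjusted p below 0.05, where it called 2 of all 12276 genes (0.0163%). At an unadjusted p below 0.05 the same fit held 592 genes (4.82%), 7 of the members among them. At an adjusted p below 0.05 limma voom called 4 genes (0.0326%) and none of the members, and DESeq2 called 106 genes (0.863%), with RT1-S3, RT1-Da, RT1-Db1 and RT1-Ba among them. Without the filter on low counts edgeR called RT1-S3 alone of the members, beside 0.124% of all genes. Single pairs moved the count of members called: it was 1 (RT1-S3) without pair 1, 0 without pair 2, and 5 (RT1-S3, Tap1, RT1-Db1, RT1-Ba and RT1-Bb) without pair 3. Of all genes, 0.148%, 0.145% and 0.447% were called in these 3 fits. Lower values in all 3 pairs occurred for 1376 of the 12276 genes (11.2%), and higher values in all 3 pairs for 1445 (11.8%).

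The class II chain genes lie farthest from 0 in the plot of values by pair, and Cd74, also of class II, has the fitted value nearest to 0 of the 9 members tested. The median fitted log2 difference was -2.45 over the 5 class II members and -0.77 over the 4 class I members tested, against 0.0041 over all genes tested. RT1-S3, Tap1, RT1-Db1 and RT1-Ba lie nearer to 0 in pair 3 than in pairs 1 and 2, and B2m, Psmb8, RT1-Da and Cd74 do not. In whole islets, fewer cells of a type and less RNA per cell cannot be told apart.

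**Figure D1:**
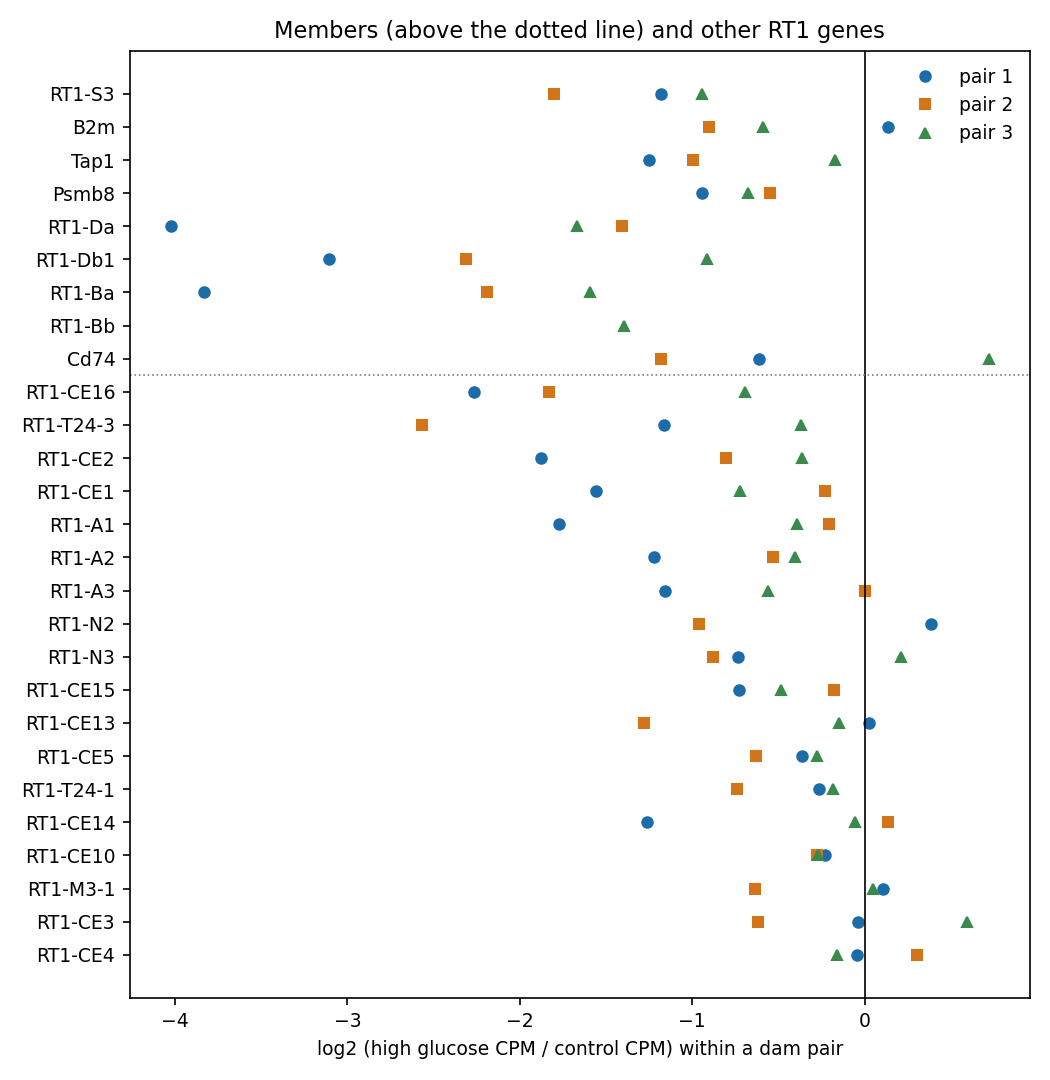
Log2 ratio of high glucose CPM over control CPM (x axis) within each of the 3 dam pairs, for 9 members above the dotted line and, below it, 18 other RT1 genes with a mean of at least 20 counts. Points left of 0 are lower in high glucose, and RT1-Da, RT1-Db1 and RT1-Ba reach -4.03, -3.10 and -3.83 in pair 1. RT1-Bb has a point for pair 3 alone because its high glucose count was 0 in pairs 1 and 2. RT1-N2 has no point for pair 3, where its high glucose count was 0.

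RT1-Da encodes the alpha chain of the RT1-D molecule, the rat counterpart of human HLA-DR, and lies on rn6 chr20:4127644-4132616, minus strand. It had 70, 55 and 10 counts in the high glucose libraries of pairs 1 to 3, and 1238, 115 and 29 counts in the control libraries. On the scale of CPM, which divides by the scaled library size, this was 2.20, 2.69 and 0.311 in high glucose, against 35.8, 7.11 and 0.989 in control. The control library of pair 1 stood far above the others, and the groups overlapped, since the control library of pair 3 lay below 2 of the high glucose libraries. The within-pair log2 differences were -4.03, -1.41 and -1.67, and the fitted log2 difference was -2.45 (SE 0.587). Without pair 1 the fit gave -1.51 and without pair 2 it gave -3.10.

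RT1-Db1 encodes the beta chain that pairs with RT1-Da and lies on rn6 chr20:4087621-4097191, plus strand. Its counts were 61, 35 and 18 in high glucose, against 570, 137 and 31 in control, or 1.92, 1.71 and 0.560 CPM in high glucose, against 16.5, 8.47 and 1.06 CPM in control. The order of the dams was the same in both groups, with pair 1 highest and pair 3 lowest. In pair 3 the ratio of high glucose to control was 0.530, with a 95% exact counting interval of 0.279 to 0.978 that covers counting error only. The fitted log2 difference was -2.20 (SE 0.466), and -1.68 without pair 1.

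RT1-Ba, the alpha chain of the RT1-B molecule, the counterpart of HLA-DQ, lies on rn6 chr20:4066133-4070726, minus strand. It measured 1.92, 2.69 and 0.374 CPM in high glucose, against 27.3, 12.2 and 1.13 CPM in control. As with RT1-Da, both libraries of pair 3 were the lowest of their group. The within-pair log2 differences were -3.83, -2.19 and -1.59, and the fitted value was -2.64 (SE 0.464), or -1.94 without pair 1.

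RT1-Bb, the beta chain that pairs with RT1-Ba, had the fewest high glucose counts of the members tested. It lies on rn6 chr20:4043726-4049367, plus strand, and 52.3% of its exon bases are shared with another annotated gene, LOC688090, so part of its reads went uncounted. Its counts were 0, 0 and 5 in high glucose, against 273, 58 and 12 in control. With a count of 0 set to a floor of 3 counts, RT1-Bb was 83.8-fold lower in pair 1 and 24.5-fold lower in pair 2. The 95% exact counting interval of the ratio of high glucose to control reached up to 0.0148 in pair 1 and 0.0518 in pair 2. In pair 3 the ratio of high glucose to control was 0.380 with a 95% exact counting interval of 0.105 to 1.16, which includes no difference. All 3 high glucose libraries lay below all 3 control libraries, as they did for 2.1% of all genes tested. RT1-Bb passed the filter on low counts through the control libraries alone, so that it had to be lower in high glucose once tested, and RT1-Da had 2 of 3 high glucose and 3 of 3 control libraries past the limit. With RT1-Bb at its floor value of either pair, it still lies below RT1-Da, and the class II median is again -2.45. That median was -1.68 without pair 1.

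Cd74, the invariant chain that fills the groove of class II molecules until they reach the endosome, did not follow the chains. It lies outside the complex, on rn6 chr18:56071478-56080851, plus strand. It measured 62.4, 70.3 and 158 CPM in high glucose, against 95.3, 159 and 95.8 CPM in control. The groups overlapped, and the high glucose library of pair 3, lowest in RT1-Da, RT1-Db1 and RT1-Ba, was the highest high glucose library in Cd74. The within-pair log2 differences were -0.61, -1.18 and 0.72, and the pair 3 ratio of 1.65 had a 95% exact counting interval of 1.57 to 1.73. The fitted log2 difference of Cd74 was -0.36 (SE 0.374), and it was 0.055 without pair 2 and -0.89 without pair 3.

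**Figure D2:**
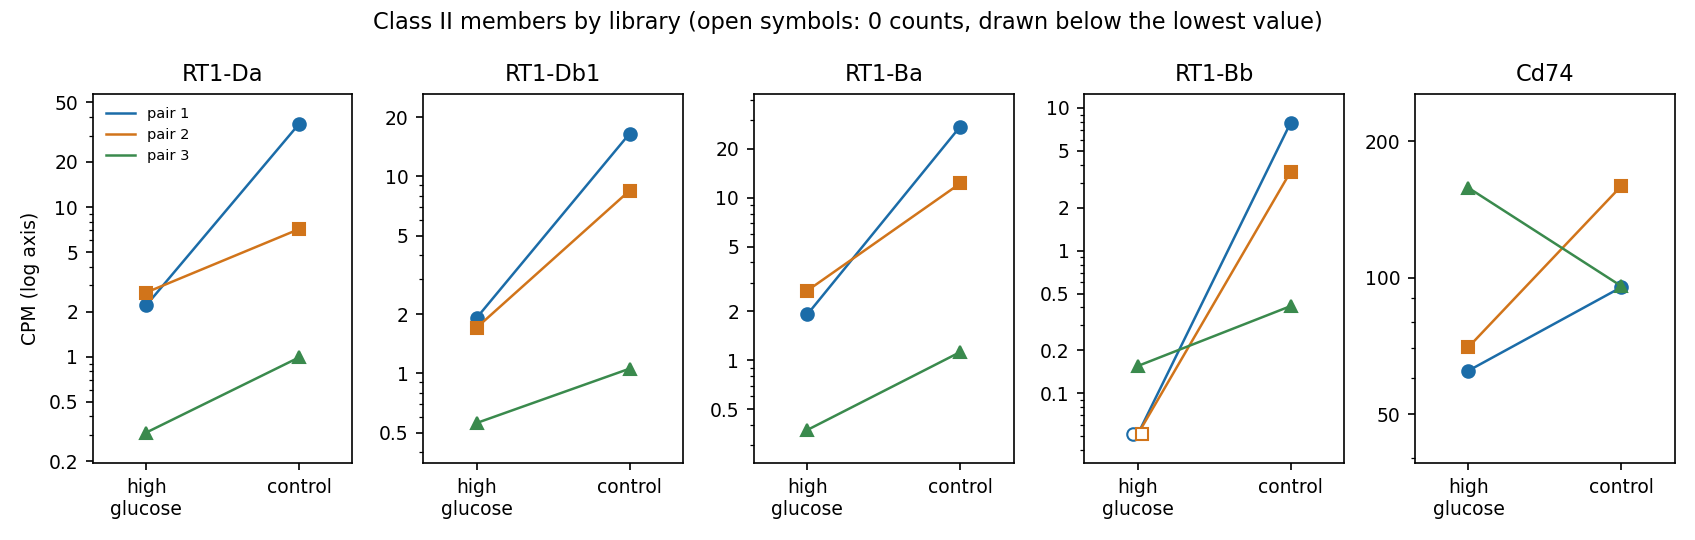
CPM of the 5 class II members (log axis) in each library, high glucose left and control right, with a line for each dam pair. The 4 chain genes slope upward to control in all 3 pairs, whereas Cd74 crosses, with 158 CPM in high glucose and 95.8 CPM in control of pair 3; open symbols are libraries with 0 counts of RT1-Bb.

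Per length of exon, Cd74 exceeded the chains it accompanies by an amount that varied over the libraries. In RPKM, which is CPM per kilobase of exon, Cd74 was 30.8, 29.3 and 381 times the mean of RT1-Da, RT1-Db1 and RT1-Ba in high glucose, against 3.53, 16.9 and 89.8 times in control. In each pair the ratio was higher in high glucose, and in both groups it was highest in pair 3. The whole class II set took 0.00720%, 0.00700% and 0.0171% of counts in high glucose, against 0.0204%, 0.0171% and 0.00975% in control, and most of it was Cd74.

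RT1-S3, a class I heavy chain gene of the nonclassical group (rn6 chr20:3176124-3180825, plus strand), showed the widest difference of the class I members. It had 1422, 603 and 534 counts in high glucose, against 3504, 1656 and 938 in control. This was 44.7, 29.4 and 16.6 CPM in high glucose, against 101, 102 and 32.0 CPM in control. Both libraries of pair 3 were low, so that the control of pair 3 lay below the high glucose library of pair 1 and the groups overlapped. The within-pair log2 differences were -1.18, -1.80 and -0.94, with a fitted value of -1.31 (SE 0.215) that stayed between -1.06 and -1.49 when any 1 pair was left out.

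B2m, the light chain of every class I molecule (rn6 chr3:114087287-114093311, plus strand), was the most abundant member. It measured 1292, 1039 and 729.5 CPM in high glucose, against 1177, 1944 and 1097 CPM in control. Unlike RT1-S3 it was higher in high glucose in pair 1, with within-pair log2 differences of 0.13, -0.90 and -0.59, and the fitted value was -0.45 (SE 0.250), or -0.75 without pair 1 and -0.23 without pair 2. B2m per kilobase was 42.4, 51.8 and 64.3 times RT1-S3 in high glucose, against 17.0, 27.8 and 50.3 times in control.

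Tap1, a subunit of the peptide transporter (rn6 chr20:3979302-3989669, plus strand), separated the groups. It measured 30.9, 25.8 and 29.4 CPM in high glucose, against 73.7, 51.3 and 33.1 CPM in control. The high glucose libraries lay close together while the control libraries spread widely. All high glucose values were below all control values, as they were for 2.1% of all genes tested. In pair 3 the difference was small: the ratio of high glucose to control was 0.888 with a 95% exact counting interval of 0.811 to 0.972. The fitted log2 difference of Tap1 was -0.81 (SE 0.239), and it was -1.12 without pair 3 and -0.58 without pair 1.

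Tap2, the other subunit of the transporter, could not be measured. It had 0, 0 and 2 counts in high glucose, against 1, 0 and 1 in control. The annotation used for counting places Tap2 at a pair of loci on chromosome 20 of rn6, 3995544 to 4009587 on the plus strand and 5198165 to 5212207 on the minus strand, and read pairs that map to several places are removed by the mapping quality minimum. The class II genes RT1-DMa, RT1-DMb and RT1-Ha are also annotated at a pair of loci, and had at most 2 counts in any library. Of the 650 genes with a second locus, 60.3% averaged at most 2 counts, against 21.6% of the 16671 genes with 1 locus.

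Psmb8, a catalytic subunit of the immunoproteasome (rn6 chr20:3990809-3993772, plus strand), had the most even difference of the members with a ratio in all 3 pairs. It measured 20.3, 37.2 and 15.5 CPM in high glucose, against 39.0, 54.4 and 24.8 CPM in control. Within pairs the log2 differences were -0.94, -0.55 and -0.68, while the level itself was highest in both libraries of pair 2. The fitted log2 difference was -0.72 (SE 0.202). Per kilobase, Psmb8 relative to Psmb5, the subunit it replaces, was 0.138, 0.110 and 0.0874 in high glucose, against 0.198, 0.179 and 0.0878 in control. The 13 tested subunits of the constitutive proteasome had a median fitted log2 difference of -0.09, and 1 of them was lower in all 3 pairs.

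**Figure D3:**
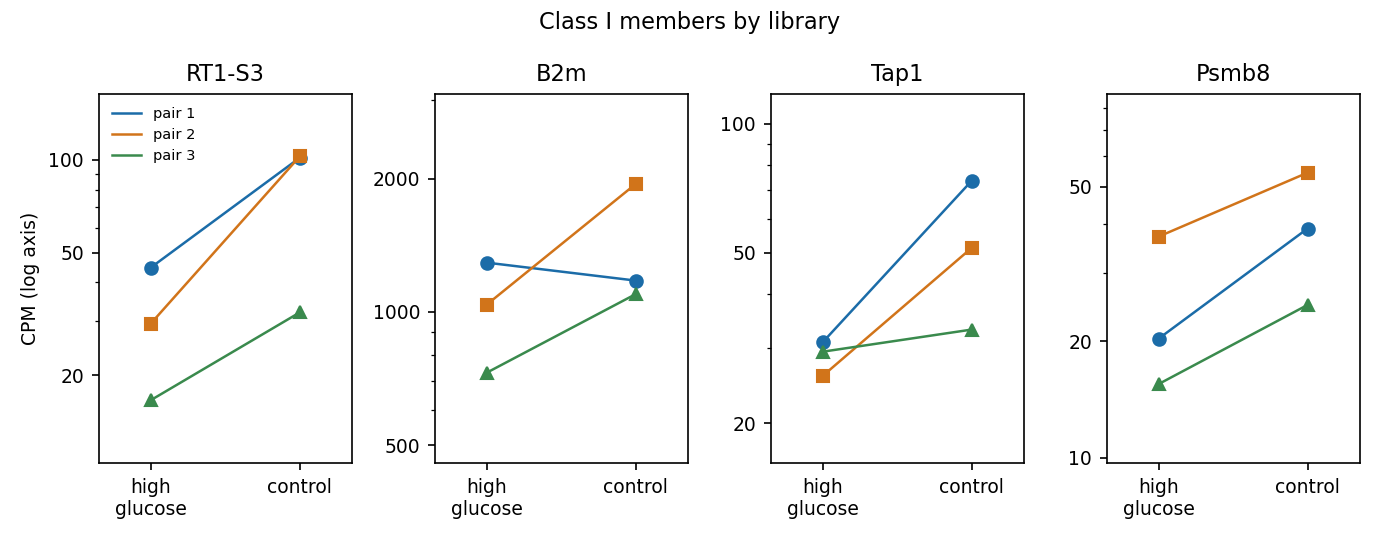
CPM of the 4 measured class I members (log axis) in each library, high glucose left and control right, with a line for each dam pair. RT1-S3, Tap1 and Psmb8 slope upward to control in all 3 pairs, whereas B2m measured 1292 CPM in high glucose and 1177 CPM in control of pair 1.

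Ranked by RPKM, the order of the members was alike in both groups at the top and spread out at the bottom in high glucose. B2m averaged 558 RPKM in high glucose and 769 RPKM in control, and Cd74 averaged 80.6 RPKM in high glucose and 97.2 RPKM in control. The lowest library of B2m, at 399 RPKM, was above the highest of Cd74, at 133 RPKM, and the lowest of Cd74, at 51.9 RPKM, was just above the highest of Psmb8, at 50.1 RPKM. Psmb8 came next with 22.4 RPKM in high glucose and 36.3 RPKM in control, and it overlapped RT1-S3, which averaged 11.3 RPKM in high glucose and 29.3 RPKM in control. RT1-S3 in turn overlapped Tap1, with 10.7 RPKM in high glucose and 19.7 RPKM in control. The chain genes RT1-Da, RT1-Ba and RT1-Db1 averaged 1.10 to 1.48 RPKM in high glucose and 6.81 to 12.3 RPKM in control, and their libraries overlapped in both groups. In control islets they also overlapped Tap1, and in high glucose islets their highest value, 2.40 RPKM, was below the lowest of Tap1, 9.63 RPKM. Of the members tested, Tap2 not being one, RT1-Bb was last in both groups, at 0, 0 and 0.103 RPKM in high glucose and 5.21, 2.37 and 0.270 RPKM in control.

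The rest of the RT1 complex was read by name. Of 44 other RT1 genes, 20 passed the filter on low counts, edgeR called 0 between high glucose and control (6 at an unadjusted p below 0.05), limma voom called 0, and DESeq2 called RT1-T24-3 and RT1-CE16, both lower. These were also the genes called by edgeR without pair 3. Of the 20, 12 were lower in high glucose in all 3 pairs and 0 were higher, beside the 11.2% and 11.8% of all genes given above, and their median fitted log2 difference was -0.47.

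RT1-CE16, a class I gene of the RT1-C/E group, measured 13.5, 9.52 and 62.9 CPM in high glucose, against 65.1, 33.8 and 102 CPM in control (fitted log2 difference -1.59, edgeR adjusted p = 0.277). RT1-A2, a classical class I gene, measured 56.7, 87.4 and 175 CPM in high glucose, against 132, 126.2 and 231 CPM in control (-0.72, edgeR adjusted p = 0.556). RT1-T24-3 measured 10.6, 10.4 and 4.83 CPM in high glucose, against 23.7, 61.3 and 6.24 CPM in control (-1.37, edgeR adjusted p = 0.784). RT1-CE16 and RT1-A2 were thus highest in pair 3, where RT1-S3 and RT1-T24-3 were lowest. Among the named RT1 genes RT1-A3 (narrowly) and RT1-CE10 had all high glucose values below all control values, as had 2.1% of all genes tested. Their fitted differences were -0.58 and -0.26, and RT1-CE4 and RT1-CE3 were nearest to 0, at 0.03 and -0.02. The fitted log2 difference was -1.0 for RT1-CE2, -0.84 for RT1-CE1, -0.78 for RT1-A1, -0.52 for RT1-N2, -0.47 for RT1-N3 and for RT1-CE15, and -0.45 for RT1-CE13. It was -0.42 for RT1-CE5, -0.41 for RT1-T24-1, -0.39 for RT1-CE14 and -0.15 for RT1-M3-1. Of the exon bases of RT1-CE1 and RT1-N2, 93.8% and 84.8% are shared with another annotated gene, so part of their reads went uncounted. RT1-N2 had 12, 39 and 0 counts in high glucose, against 10, 60 and 1 in control. RT1 genes are close copies of each other, and rn6 comes from the Brown Norway strain, so counts can be split or lost between copies and the values of single RT1 genes are uncertain.

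Levels also differed between dams, which is a comparison the choice of members did not use. edgeR's test of the 3 dams called 2795 of the 12276 genes (22.8%) at an adjusted p below 0.05. It called 5 of the 9 members tested: RT1-S3, Psmb8, RT1-Da, RT1-Db1 and RT1-Ba. The same 5 were called with RLE scaling (22.5% of all genes), without the filter on low counts (20.1%), with DESeq2 (33.4%), with limma voom (24%) and without pair 1 (17.9%). Without pair 2 the count was 1 (RT1-S3) beside 1.74% of all genes, and without pair 3 it was 0 beside 31.5%, so the calls of members were not made without pair 3. Dam and islet preparation cannot be told apart. For RT1 genes of these outbred rats, low expression in a dam and reads lost on rn6 cannot be told apart either.

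The members called were lowest in dam 3. The mean of the 2 libraries of a dam was 73.0, 65.9 and 24.3 CPM for RT1-S3 in dams 1 to 3 (edgeR adjusted p = 0.00866). For the chains the dam means were 19.0, 4.90 and 0.650 CPM of RT1-Da (edgeR adjusted p = 0.0190), 9.20, 5.09 and 0.809 CPM of RT1-Db1 (0.0174) and 14.6, 7.47 and 0.749 CPM of RT1-Ba (0.00933). Psmb8 was highest in dam 2, at 29.7, 45.8 and 20.2 CPM (edgeR adjusted p = 0.0182). Cd74 was not called, and its dam means ran the other way, at 78.8, 115 and 127 CPM (edgeR adjusted p = 0.425). Its control libraries alone did not rise to dam 3, at 95.3, 159 and 95.8 CPM in dams 1 to 3. B2m, Tap1 and RT1-Bb were not called either.

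Of the 20 other RT1 genes tested, 8 (40%) were called between dams, and they did not share 1 order. RT1-A2 was highest in dam 3, at 94.4, 107 and 203 CPM (edgeR adjusted p = 0.0148), and so were RT1-A1, at 36.7, 38.9 and 100 CPM (0.033), and RT1-CE16, at 39.3, 21.7 and 82.3 CPM (0.0122). RT1-T24-1 was lowest in dam 3, at 6.60, 10.5 and 0.865 CPM (edgeR adjusted p = 0.00312), and RT1-N3 was highest in dam 2, at 20.9, 71.1 and 16.3 CPM (0.00388). RT1-N2, RT1-CE2 and RT1-CE6 were called as well.

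**Figure D4:**
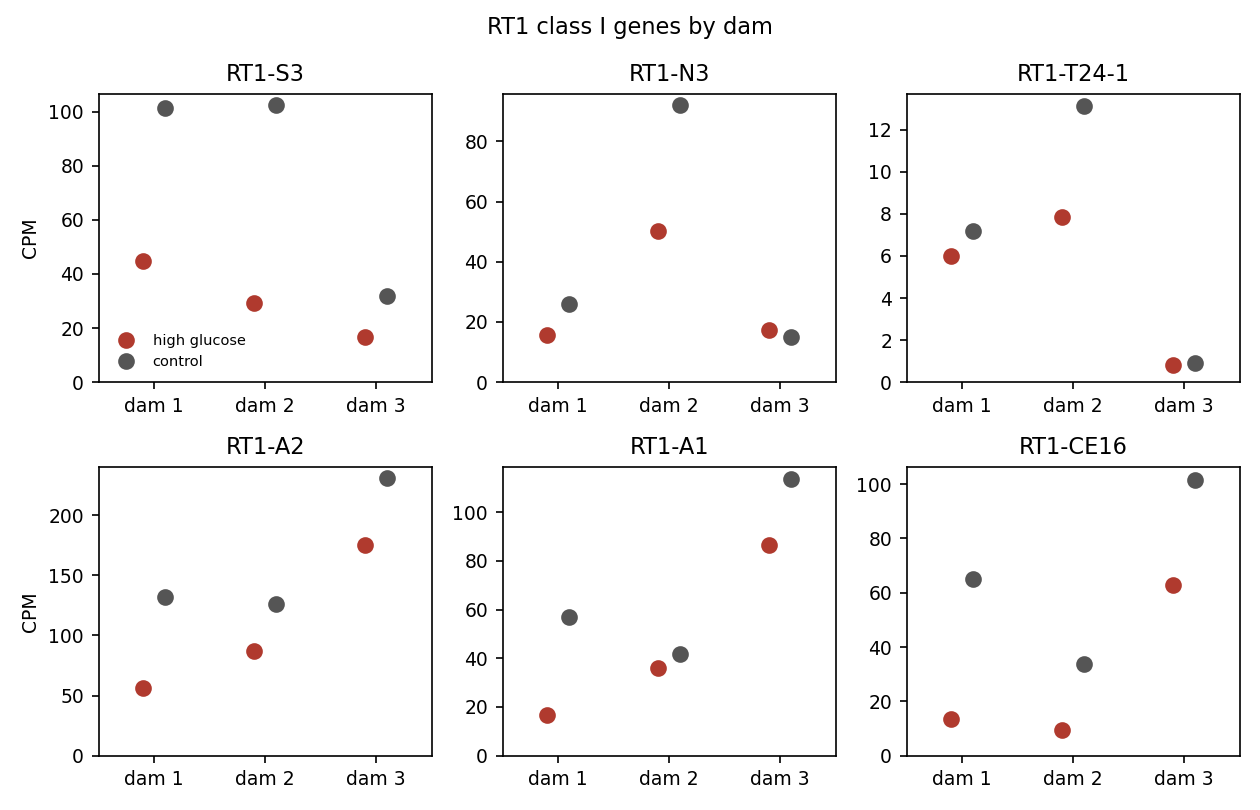
CPM of 6 RT1 class I genes (y axis from 0) by dam, with the high glucose library left and the control library right within each dam. RT1-S3 and RT1-T24-1 are lowest in dam 3, RT1-A2, RT1-A1 and RT1-CE16 are highest there, and RT1-N3 is highest in dam 2.

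No other gene of the pathways was called. The class I pathway list had 22 genes tested, of which 0 were called by edgeR, limma voom or DESeq2, and edgeR held 3 at an unadjusted p below 0.05. Of them 6 were lower in high glucose in all 3 pairs and 0 were higher, with a median fitted log2 difference of -0.12. Psmb9, an immunoproteasome subunit whose gene neighbours Tap1, measured 18.0, 30.5 and 20.7 CPM in high glucose, against 43.0, 38.5 and 28.2 CPM in control (-0.68, edgeR adjusted p = 0.791). Tapbp, the tapasin that bridges TAP to the class I molecule, had a fitted difference of -0.44, and the chaperones Calr, Canx and Pdia3 lay between -0.01 and 0.15.

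The class II pathway list had 12 genes tested, of which 0 were called by the same 3 tools, and edgeR held 4 at an unadjusted p below 0.05. Of them 4 were lower in all 3 pairs and 0 were higher, with a median of -0.46. Slc11a1, a metal transporter of macrophage phagosomes, measured 32.8, 20.1 and 6.85 CPM in high glucose, against 49.0, 29.5 and 22.2 CPM in control (-0.93, edgeR adjusted p = 0.553). March1, a ubiquitin ligase that removes class II molecules from the surface, measured 0.912, 0.0488 and 0.124 CPM in high glucose, against 2.26, 0.186 and 1.30 CPM in control (-2.10, edgeR adjusted p = 0.781) and is annotated at a pair of loci. Ciita, the coactivator of class II genes, was too low to test, at 0.220, 0.537 and 0.187 CPM in high glucose, against 2.86, 0.309 and 0.136 CPM in control. The ratio of high glucose to control for Ciita was 0.0768 in pair 1 (95% exact counting interval 0.0301 to 0.164). In pairs 2 and 3, with at most 11 counts a library, the intervals of 0.556 to 6.38 and 0.325 to 6.60 include no difference.

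Genes induced by interferon, a list whose direction was already known from these libraries, stood lower with the class I members. All 17 were tested, edgeR called 0 (16 at an unadjusted p below 0.05), limma voom called 2 and DESeq2 called 14, each of them lower. In all, 16 were lower in all 3 pairs, and the median fitted log2 difference was -1.62. Their summed level was 532, 483 and 262 CPM in high glucose, against 1547, 1941 and 385 CPM in control. The control library of pair 3 thus had the lowest sum of its group, as it had for RT1-S3 and the chain genes. The part of these genes in the differences of the members was not tested.

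Over the 6 libraries, the mean profile of the 4 class I members was followed most closely by Irf7, a transcription factor of the interferon response (Pearson r = 0.992), Gbp5 (0.986), Dhx58 (0.982), Gbp2 (0.977) and Tox2 (0.976), of 11010 genes compared. The profile of the class II members was followed most closely by Itgb7, an integrin of lymphocytes (0.991), Pacsin2 (0.978), Dusp1 (0.976), Rbm38 (0.972) and Ifit2 (0.971). With 6 libraries that share dams and groups and many genes to choose from, these are descriptions. Of the class II members themselves, RT1-Da, RT1-Db1, RT1-Ba and RT1-Bb had a correlation with the class II profile of at least 0.904, and Cd74 had 0.204. Each member is part of that profile, in which the genes with the widest ranges weigh most, so these values are partly built in.

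Sums of macrophage, general leukocyte and B cell markers were lower in high glucose in each pair, and the dendritic cell sum was higher in pair 2. Few dendritic and B cell markers were measurable, and the 2 B cell genes tested were each mixed over the pairs. The 12 macrophage genes summed to 1138, 784 and 515 CPM in high glucose, against 1460, 890 and 1172 CPM in control. Of them 7 were lower in all 3 pairs, and edgeR, limma voom and DESeq2 called 0, with 6 at an unadjusted p below 0.05 in edgeR. The 6 general leukocyte genes summed to 217, 157 and 82.1 CPM in high glucose, against 357, 211 and 237 CPM in control, and 5 of 6 were lower in all 3 pairs (edgeR called 0, with 4 at an unadjusted p below 0.05, and DESeq2 called 2). Between the control libraries of pairs 2 and 3 these genes did not share 1 order. The sum was higher in that of pair 3, while Cd52 and Coro1a were lower there. They measured 1.81 and 33.7 CPM in control of pair 3, against 18.3 and 53.2 CPM in control of pair 2. The other general leukocyte genes were higher in control of pair 3, and RT1-Da, RT1-Db1 and RT1-Ba were lower.

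Dendritic cell markers summed to 31.6, 38.1 and 22.1 CPM in high glucose, against 51.6, 32.2 and 29.9 CPM in control. Xcr1, which defines cross-presenting dendritic cells, was at 0 in all libraries, and Clec9a reached at most 0.0868 CPM. The 5 B cell markers in the files summed to 26.5, 17.5 and 13.0 CPM in high glucose, against 40.6, 18.3 and 22.2 CPM in control, most of it Blnk, which macrophages also express. Cd79b, part of the B cell receptor, was at 0.126, 0.537 and 0.529 CPM in high glucose, against 8.36, 1.17 and 0.511 CPM in control, so its highest value was in the control library of pair 1, where RT1-Da was also highest. Pax5, a defining factor of B cells, was at 0 in the 3 high glucose libraries, against 0.608, 0.371 and 0 CPM in control. RT1-Da relative to Ptprc, the general leukocyte antigen CD45, was 0.0680, 0.279 and 0.0413 in high glucose, against 0.560, 0.572 and 0.0445 in control. The ratio was nearly the same in both libraries of pair 3.

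Some other cell types differed with the groups as well. Erythroid genes summed to 144, 596 and 84.0 CPM in high glucose, against 1447, 1409 and 373 CPM in control. All 5 tested were lower in all 3 pairs, with a median fitted log2 difference of -3.67. Of them edgeR called 1, Car1, the carbonic anhydrase of red cells, while DESeq2 called 4. Car1 had 4, 0 and 1 counts in high glucose, against 655, 7 and 212 in control. Like RT1-Bb it passed the filter on low counts through the control libraries alone, so it had to be lower once tested. T cell markers summed to 13.8, 10.5 and 9.93 CPM in high glucose, against 34.2, 12.4 and 19.3 CPM in control, with 0 of 5 called by edgeR, limma voom or DESeq2 and 2 at an unadjusted p below 0.05 in edgeR. Duct markers ran the other way, with sums of 2646, 2026 and 5343 CPM in high glucose, against 1238, 1458 and 3578 CPM in control. The 5 tested had a median of 0.76, and edgeR called 0 of them (2 at an unadjusted p below 0.05), limma voom called 0 and DESeq2 called 1. The 6 beta cell genes had within-pair median log2 differences of 0.85, -0.30 and -2.18. By this median, beta cell RNA was higher in high glucose in pair 1 and lower in pairs 2 and 3, most in pair 3. The part of the cell makeup in the values of the members was not tested.

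**Figure D5:**
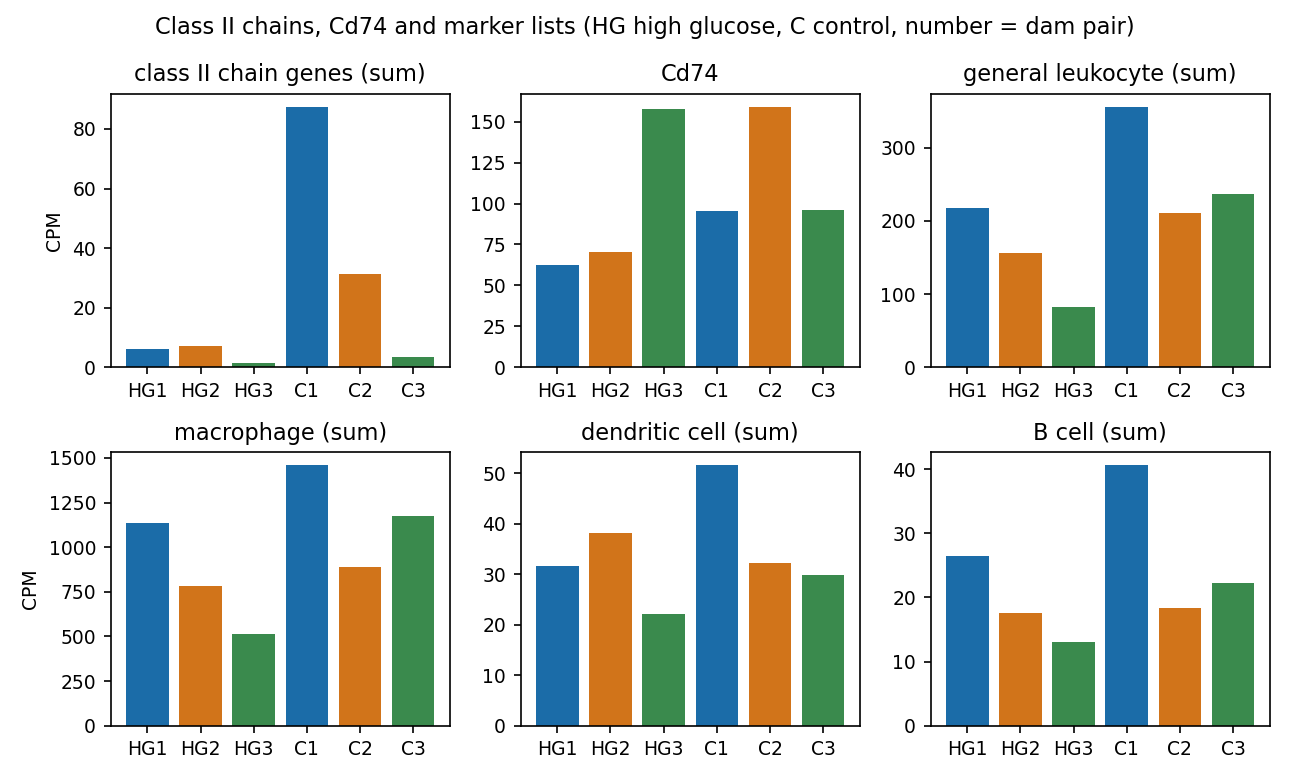
Summed CPM of the 4 class II chain genes, CPM of Cd74 and summed CPM of 4 marker lists in each library (HG, high glucose; C, control; the number is the dam pair; each y axis starts at 0). The chain genes sum to 1.40 to 7.08 CPM in high glucose and 3.58 to 87.5 CPM in control, whereas the macrophage sum spans 515 to 1138 CPM in high glucose and 890 to 1460 CPM in control.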

How the data were processed

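Poly(A) RNA of fetal rat islets was sequenced with a stranded kit, per the labels. The authors deposited unnormalized gene counts of read pairs from featureCounts 1.5.1 on rn6 with the UCSC refGene annotation, a mapping quality of at least 10 and strand setting 2, per the file headers. Alignment used STAR 2.5, per the submitters' processing notes, which also name mm10. The members and lists were chosen with earlier results of these data known.

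Tests used edgeR 4.0.16 under R 4.3.3 (TMM, filterByExpr, robust quasi-likelihood F-test, dam block plus treatment, Benjamini-Hochberg adjustment over all 12276 genes tested, adjusted p below 0.05), and between dams on both dam terms at once (2 degrees of freedom). The method was tested on simulated counts, where the share of false calls lay above the nominal level in the comparison of groups and in that of dams, so adjusted p-values near the threshold, those of the dams included, are likely too small. Fitted differences are high glucose minus control. CPM and RPKM use TMM-scaled library sizes. Counting intervals are exact (Clopper-Pearson, 95%), and a count of 0 was set to a floor of 3 counts per library. Pairing comes from the shared dam: deviations from the group means correlated at 0.474, 0.621 and 0.413 within pairs 1 to 3. Named were the members, RT1 genes with a mean of at least 20 counts, the 3 largest rises and falls of the pathway lists with 1 direction in all pairs (there was no such rise), and the 5 genes nearest to each class profile with a mean of at least 50 counts. RT1-CE6, Tapbp, Calr, Canx, Pdia3 and Ciita are named outside this rule, with their values in view. Alternatives were DESeq2 1.42.0, limma voom 3.58.1, RLE scaling, no filter on low counts, no replicate block, an adjusted p below 0.1 and each pair left out.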

Additional observations from a re-analysis of the deposited data

How the results depend on the processing

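The number of genes called between high glucose and control was 2, and it was 18 with no filter on low counts, 106 with DESeq2, 4 with limma voom, 4 at an adjusted p below 0.1, and 18 to 55 with 1 pair left out. Without the replicate block it was 0, and the same fit without the block called 0 members and 0 other RT1 genes. Members called numbered 0, and 1 with no filter (RT1-S3), 4 with DESeq2 and 0 to 5 with 1 pair left out. Other RT1 genes called numbered 0, and 2 with DESeq2 and 0 to 2 with 1 pair left out. Pathway genes called numbered 0 under each alternative. Genes called between dams numbered 2795, and 4318 at an adjusted p below 0.1 and 216 to 3878 with 1 pair left out. Members called between dams numbered 5 under each alternative with all pairs, and 0 to 5 with 1 pair left out. The cause of these shifts was not tested. The median of the class I members lay between -0.93 and -0.68, and that of the class II members between -3.04 and -1.68. With 1 pair left out Cd74 lay between -0.89 and 0.055, and it changed sign without replicate 2 (0.055). RT1-Da, RT1-Db1, RT1-Ba and RT1-Bb rest on few counts in high glucose, which limits the precision of their differences.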
